A study of Homo sapiens with 16 samples.

Results

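The genes of the integrated stress response described here are ATF4, DDIT3, ATF3, TRIB3, PPP1R15A, CHAC1, ASNS, SESN2, DDIT4 and GADD45A. They were found by symbol in the deposited table of 42351 genes, where each of the 10 occurred once and passed the filter on low counts. The RNA-seq libraries came from wt MET cells, which the sample labels name as A549 (a lung adenocarcinoma line), and from NCI-H596, a lung adenosquamous carcinoma line that expresses MET∆14, the receptor that lacks exon 14. Both lines were deprived of serum for 12 h according to the labels (the methods of the study give a longer time) and then received HGF, the ligand of MET, for 0, 3, 6 or 12 h, with 2 biological replicates in each of the 8 conditions. The methods of the study name EKVX among the wt MET lines, so the line behind the wt MET libraries is called by its MET status here. Each MET status is 1 cell line, so that MET status and line cannot be told apart, and the 0 h libraries are the only ones without HGF, so that HGF and elapsed time cannot be told apart either.

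The libraries held 10158590 to 23909304 counts. In every wt MET library CDKN2A had 0 counts and MTAP at most 1.55 CPM (counts per gene scaled to the library size, with TMM factors), and in the MET∆14 libraries they lay at 86.0 to 157 CPM and 57.6 to 138 CPM; both genes are known to be deleted in A549. The epithelial keratins KRT8 and KRT18 were high in both lines, while EPCAM and CDH1 reached only 2.97 and 12.6 CPM in wt MET. Of the squamous markers, TP63 and KRT5 were high in MET∆14 only, at 96.5 to 164 CPM and 1743 to 2461 CPM, and SOX2 stayed at or below 2.35 CPM in both lines. The adenocarcinoma markers NKX2-1, NAPSA and SFTPB did not exceed 1.27 CPM in any library. Of the fibroblast markers in MET∆14, the collagens COL3A1 and COL1A1 were at 170.1 to 328 CPM and 15.9 to 33.3 CPM, while COL1A2 and PDGFRB had at most 2 counts in any single library of that line. Of the immune markers, PTPRC and CD3E had at most 2 counts in any single library, and CD68, a lysosomal protein abundant in macrophages, was at 34.3 to 41.8 CPM in wt MET and 108 to 154 CPM in MET∆14. The part of these markers in the results was not tested. The replicates of MET∆14 at 12 h stood further apart than those of the other conditions, with a chi-square per degree of freedom over genes of 34.1 against 2.75 to 9.80 elsewhere. Some results at that time, among them the number of the 10 genes called, are therefore also given with a library left out. The other values at that time rest on both libraries.

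In the integrated stress response, kinases that sense unfolded protein, missing amino acids, double-stranded RNA or haem shortage phosphorylate the translation factor eIF2. Translation of most mRNAs then slows, whereas that of ATF4 mRNA is favoured through short upstream reading frames, so that its protein can change without a change of the transcript counted here. ATF4 activates genes for amino acid supply and the further transcription factors DDIT3 (CHOP) and ATF3, and PPP1R15A (GADD34) closes the loop by bringing a phosphatase back to eIF2. Several of these genes also answer other signals, among them growth factors, p53 and hypoxia.

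ATF4 with a C/EBP partner binds the C/EBP-ATF response element, and the cAMP response element is bound by ATF and CREB proteins. These motifs are shown because such factors bind them, and not as proven control sites of each of the genes. Sites outside the windows searched would be missed. Promoter windows from 250 bases before to 50 bases after an annotated start were taken from RefSeq (GRCh38.p14), and 9 of the 10 genes matched with 15 starts in all. The letters TGATGNAAN occurred, on either strand, in windows of 3 of the genes and in 3.61% of 35116 promoters. The letters TGACGTCA occurred in 1 of the genes and in 1.85% of promoters, and those of the ER stress element, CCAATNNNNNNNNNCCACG, in 0 of the genes and in 0.0769% of promoters. The counts are of genes, with up to 3 starts a gene, whereas the percentages are of single promoters, so they are not like for like. Each stretch runs 5′ to 3′ on the strand of the gene with the matched letters in capitals.
ATF3, chr1:212565176-212565264, plus strand, match 191 bases before the start: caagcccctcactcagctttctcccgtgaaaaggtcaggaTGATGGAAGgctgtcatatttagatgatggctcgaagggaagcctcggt
ASNS, chr7:97872458-97872486, minus strand, match 68 bases before the start: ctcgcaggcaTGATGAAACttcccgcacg
CHAC1, chr15:40953251-40953279, plus strand, match to the reverse complement 210 bases before the start: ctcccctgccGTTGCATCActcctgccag
PPP1R15A, chr19:48872353-48872380, plus strand, palindromic match to the cAMP response element 58 bases before the start: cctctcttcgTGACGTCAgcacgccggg
The start is that of a RefSeq transcript. In the GENCODE annotation the stretches of ASNS, CHAC1 and PPP1R15A lie inside the spans of those genes given below and wholly within annotated exons, and that of ATF3 overlaps no exon. A match of letters does not show that a factor was bound in these cells.

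By 12 h of HGF, the changes that passed the test among these genes were upward in wt MET and downward in MET∆14. In cells expressing wt MET, 5 of the 10 genes were higher than at 0 h and 0 were lower, and in cells expressing MET∆14, 0 were higher and 9 were lower. At that time 16.9% of the 15067 tested genes were higher and 18.2% lower in wt MET, and 18.3% were higher and 20.1% lower in MET∆14 (edgeR quasi-likelihood test, Benjamini-Hochberg adjusted over all tested genes, threshold 0.05). The median log2 fold change of the 10 genes was 0.38 in wt MET and -0.78 in MET∆14, where the medians over all genes were -0.0019 and -0.024. In MET∆14 both 12 h libraries lay below both 0 h libraries for 10 of the 10 genes, and in wt MET both lay above for 8 and overlapped for 2. How many of all tested genes were separated in this way was not counted, so these counts have no background to be read against. Without either of the MET∆14 12 h libraries, 9 of the genes were called in MET∆14 at 12 h. Counts are shares of the RNA in a library, so that fewer cells with a transcript and less of it per cell cannot be told apart.

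At the earlier times the picture was mixed. In wt MET, 4 genes were higher and 1 lower at 3 h, where 10.3% of all genes were higher and 7.16% lower. At 6 h 4 were higher and 1 lower, against 16.4% and 17.8% of all genes. In MET∆14, 2 were higher and 2 lower at 3 h, against 15.5% and 16.1%. At 6 h 1 was higher and 6 lower, against 21.6% and 22.5%. These counts in MET∆14 rested on single libraries: at 3 h 1 gene was called without 0 h replicate 1 and 2 without any other 0 or 3 h library, and at 6 h 4 were called without 0 h replicate 1 or 0 h replicate 2. The medians of the 10 genes in MET∆14 were 0.032 at 3 h and -0.41 at 6 h. Over the times jointly, 7 of the 10 genes changed in wt MET (F test, 40.3% of all genes called) and 10 of the 10 in MET∆14 (54.1%). TRIB3, ASNS and SESN2 were the genes not called in wt MET, at adjusted p = 0.11, 0.80 and 0.15 in that F test.

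**Figure D1:**
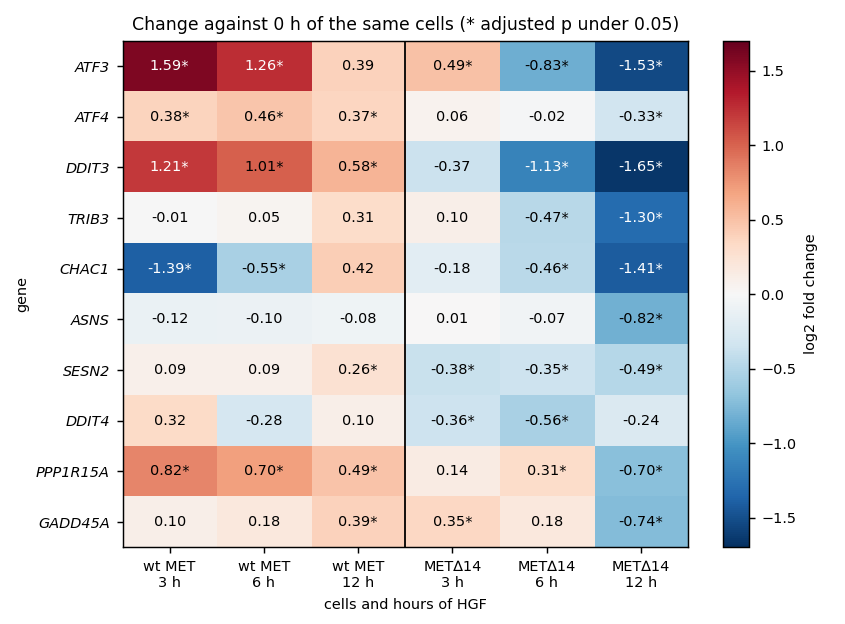
Heat map of the log2 fold change against 0 h of the same line (colour scale and printed value) for each of the 10 genes (rows) at 3, 6 and 12 h of HGF in wt MET and MET∆14 (columns), with an asterisk where the adjusted p was under 0.05. In the MET∆14 12 h column every value lies below 0, down to -1.65 for DDIT3, and the called values of the wt MET 12 h column lie above it.

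Values given for each gene are CPM of replicates 1 and 2 in turn, then log2 fold changes against 0 h with their SE and adjusted p. ATF4, the activator at the centre of the response (chr22:39519695-39522683 on hg38, plus strand), rose modestly in wt MET and fell at 12 h in MET∆14. In wt MET its replicates were at 647 and 721 CPM at 0 h, 888 and 890.0 CPM at 3 h, 946 and 942 CPM at 6 h and 876 and 888 CPM at 12 h. In MET∆14 they were at 235 and 225 CPM at 0 h, 237 and 242 CPM at 3 h, 222 and 230.5 CPM at 6 h and 167 and 199.8 CPM at 12 h. All wt MET libraries after HGF lay above those at 0 h, and in MET∆14 the 12 h libraries lay below all others. The rise in log2 units in wt MET was 0.38 ± 0.091 (adjusted p = 0.00957) at 3 h, 0.46 ± 0.091 (adjusted p = 0.00119) at 6 h and 0.37 ± 0.091 (adjusted p = 0.00591) at 12 h. In MET∆14 the fold changes at 3 and 6 h were 0.059 ± 0.092 and -0.022 ± 0.092, neither past the test, and ATF4 fell by 0.33 ± 0.093 (adjusted p = 0.0116) at 12 h. These are small changes: the 3 h call was lost without wt MET 0 h replicate 1 (adjusted p = 0.0918) or wt MET 3 h replicate 2 (0.0583), the 12 h call in wt MET without wt MET 0 h replicate 1 (0.0603), and that in MET∆14 without MET∆14 0 h replicate 1 (0.0948) or with the line fitted alone (0.0703). Without MET∆14 12 h replicate 1 the fall was smaller, with a fold change of -0.20 that still passed the test. In the order of conditions by level, 3 and 12 h in wt MET overlapped, as did 0 and 6 h in MET∆14.

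DDIT3, the CHOP transcription factor that promotes cell death under lasting stress (chr12:57516588-57521737, minus strand), had the largest estimated difference between the responses of the lines at 12 h among the 10. The wt MET replicates were at 204 and 248 CPM at 0 h, 520.2 and 523 CPM at 3 h, 465 and 445 CPM at 6 h and 338 and 336 CPM at 12 h. The MET∆14 replicates were at 47.5 and 38.0 CPM at 0 h, 38.7 and 28.0 CPM at 3 h, 19.3 and 19.5 CPM at 6 h and 13.3 and 13.9 CPM at 12 h. The peak in wt MET was at 3 h and the level then came down without returning to the 0 h range, whereas in MET∆14 each later time was lower and 6 and 12 h cleared the 0 h libraries. In wt MET DDIT3 rose by 1.21 ± 0.13 at 3 h, 1.01 ± 0.13 (adjusted p = 2.8e-05) at 6 h and 0.58 ± 0.13 (adjusted p = 0.00257) at 12 h. In MET∆14 it fell by 1.13 ± 0.14 (adjusted p = 1.59e-05) at 6 h and 1.65 ± 0.15 (adjusted p = 1.48e-06) at 12 h, that is 3.14-fold. At 3 h in MET∆14 the fold change was -0.37 ± 0.14 (adjusted p = 0.0586), not past the test. It passed with no filter on low counts (0.0123) and with a replicate block (0.0486). Without MET∆14 0 h replicate 2 it was -0.52, and without MET∆14 3 h replicate 1 it was -0.60. Of the merged exons of DDIT3, 27.2% overlap MARS1 on the opposite strand and 8.03% a protein-coding gene on the same strand, and whether strand was used in counting is not given in the sources used here. MARS1, which charges methionine tRNA, had log2 fold changes of 0.012, 0.080 and 0.18 in wt MET and -0.025, 0.14 and -0.072 in MET∆14 at 3, 6 and 12 h, and 0 of these 6 passed the test.

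ATF3, a stress-inducible repressor and activator that ATF4 switches on (chr1:212565334-212620777, plus strand), showed a pulse in wt MET and a late fall in MET∆14. Levels in wt MET were 153 and 223 CPM at 0 h, 558 and 574 CPM at 3 h, 439.5 and 459 CPM at 6 h and 259 and 231 CPM at 12 h. Levels in MET∆14 were 51.6 and 45.0 CPM at 0 h, 79.1 and 57.2 CPM at 3 h, 29.0 and 25.5 CPM at 6 h and 16.3 and 17.1 CPM at 12 h. Neighbouring conditions in the order of levels did not overlap, from wt MET 3 h down to MET∆14 12 h. Not every step in that order passed the test: the change from 3 to 6 h in wt MET was -0.33 ± 0.16 (adjusted p = 0.325). In wt MET the rise was 1.59 ± 0.16 at 3 h and 1.26 ± 0.16 (adjusted p = 3.86e-05) at 6 h. The value at 12 h was 0.39 ± 0.16 (adjusted p = 0.0725), and it passed with no filter on low counts (0.0022) and with a replicate block (0.0499). Without wt MET 0 h replicate 2 the 12 h value was 0.68. In MET∆14 ATF3 rose by 0.49 ± 0.17 (adjusted p = 0.0364) at 3 h, a call lost without either MET∆14 0 h library (adjusted p = 0.0665 without replicate 1 and 0.217 without replicate 2) or without MET∆14 3 h replicate 1 (0.379). It then fell by 0.83 ± 0.17 (adjusted p = 0.00144) at 6 h and 1.53 ± 0.19 (adjusted p = 2.2e-05) at 12 h, 2.89-fold below 0 h.

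PPP1R15A, the regulatory subunit that directs protein phosphatase to eIF2 (chr19:48872212-48876059, plus strand), showed the widest gap between the lines at 0 h among the 10 genes. The wt MET libraries gave 1104 and 1329.5 CPM at 0 h, 2149 and 2158 CPM at 3 h, 1948 and 2009 CPM at 6 h and 1710.4 and 1698 CPM at 12 h. The MET∆14 libraries gave 159.6 and 144 CPM at 0 h, 173 and 163 CPM at 3 h, 180.0 and 196 CPM at 6 h and 87.8 and 99.1 CPM at 12 h. The wt MET libraries after HGF all lay above those at 0 h, and MET∆14 showed a small rise at 6 h before the lowest values at 12 h. The rise in wt MET was 0.82 ± 0.10 (adjusted p = 6.04e-05), 0.70 ± 0.10 (adjusted p = 0.000108) and 0.49 ± 0.10 (adjusted p = 0.00197) at the 3 times. With MET∆14 it rose by 0.31 ± 0.10 (adjusted p = 0.0255) at 6 h and fell by 0.70 ± 0.11 (adjusted p = 0.000119) at 12 h. The 6 h call was lost without MET∆14 0 h replicate 1 (adjusted p = 0.0525), 0 h replicate 2 (0.222) or 6 h replicate 2 (0.203).

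TRIB3, a pseudokinase that ATF4 and DDIT3 induce and that restrains ATF4 (chr20:362835-397559, plus strand), did not pass the test at any time in wt MET and fell in MET∆14. Replicates of wt MET lay at 489.7 and 416 CPM at 0 h, 465 and 435 CPM at 3 h, 454 and 481 CPM at 6 h and 549.1 and 576 CPM at 12 h. Replicates of MET∆14 lay at 161 and 142 CPM at 0 h, 178 and 146 CPM at 3 h, 107 and 111 CPM at 6 h and 53.3 and 70.2 CPM at 12 h. The wt MET 12 h libraries lay above the rest of that line, while its 0, 3 and 6 h libraries overlapped. The wt MET value at 12 h was 0.31 ± 0.12 (adjusted p = 0.0625), and it passed with DESeq2 (0.0445), with each line fitted alone (0.0028) and without wt MET 0 h replicate 1 (0.0464). In MET∆14 TRIB3 fell by 0.47 ± 0.13 (adjusted p = 0.00689) at 6 h and 1.3 ± 0.13 (adjusted p = 3.07e-06) at 12 h, 2.47-fold. The 6 h call was lost without MET∆14 0 h replicate 1 (adjusted p = 0.0694).

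CHAC1, an enzyme that breaks down glutathione and a target of ATF4 (chr15:40952962-40956512, plus strand), was the one gene of the 10 that did not pass the test between the lines at 0 h, and the one that fell at 3 h in wt MET. In wt MET it was at 23.5 and 17.4 CPM at 0 h, 9.01 and 6.47 CPM at 3 h, 13.9 and 14.0 CPM at 6 h and 27.9 and 26.7 CPM at 12 h. In MET∆14 it was at 20.8 and 19.0 CPM at 0 h, 20.4 and 14.9 CPM at 3 h, 14.9 and 14.1 CPM at 6 h and 6.46 and 8.81 CPM at 12 h. The wt MET libraries dipped at 3 h and at 12 h lay above both 0 h libraries, whereas those of MET∆14 overlapped 0 h at 3 h and were lowest at 12 h. In wt MET CHAC1 fell by 1.39 ± 0.20 (adjusted p = 0.000194) at 3 h and 0.55 ± 0.18 (adjusted p = 0.0307) at 6 h, and the 12 h value was 0.42 ± 0.17 (adjusted p = 0.0764), which passed with each line fitted alone (0.0198) and without wt MET 0 h replicate 1 (0.033). Its 6 h call was lost without wt MET 0 h replicate 1 (adjusted p = 0.307), 6 h replicate 1 (0.139) or 6 h replicate 2 (0.128). With MET∆14 it fell by 0.46 ± 0.18 (adjusted p = 0.0496) at 6 h and 1.41 ± 0.20 (adjusted p = 6.23e-05) at 12 h. The 6 h value lay at the threshold and was lost with DESeq2 (adjusted p = 0.0799) and without any single MET∆14 0 or 6 h library (0.0868 to 0.199).

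ASNS, which makes asparagine (chr7:97851677-97872542, minus strand), did not pass the test at any time in wt MET and fell at 12 h in MET∆14. The wt MET replicates were at 231 and 219 CPM at 0 h, 214 and 200.4 CPM at 3 h, 209.8 and 209.6 CPM at 6 h and 204 and 223 CPM at 12 h. The MET∆14 replicates were at 72.7 and 66.4 CPM at 0 h, 74.5 and 65.3 CPM at 3 h, 63.8 and 68.8 CPM at 6 h and 33.5 and 45.9 CPM at 12 h. The 4 wt MET conditions overlapped their neighbours in level, as did 0, 3 and 6 h in MET∆14. The largest wt MET fold change in size was -0.12 ± 0.11 (adjusted p = 0.52) at 3 h. In MET∆14 ASNS fell by 0.82 ± 0.12 (adjusted p = 0.000101) at 12 h, 1.77-fold. A long non-coding RNA on the same strand overlaps 49.3% of its merged exons, so that reads of the genes could have been shared in the counting.

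SESN2 and DDIT4 (also REDD1) both restrain mTORC1, SESN2 as a sensor of leucine and DDIT4 through the TSC complex, and both were lower after HGF in MET∆14. SESN2 (chr1:28259518-28282491, plus strand) was at 204 and 233 CPM at 0 h, 241 and 222 CPM at 3 h, 226 and 239.9 CPM at 6 h and 267 and 256 CPM at 12 h in wt MET. Levels in MET∆14 were 50.9 and 52.3 CPM at 0 h, 44.4 and 35.4 CPM at 3 h, 39.7 and 41.0 CPM at 6 h and 36.9 and 36.6 CPM at 12 h. All MET∆14 libraries after HGF lay below those at 0 h. SESN2 fell by 0.38 ± 0.10 (adjusted p = 0.0113), 0.35 ± 0.10 (adjusted p = 0.0109) and 0.49 ± 0.10 (adjusted p = 0.00179) at 3, 6 and 12 h in MET∆14. Of these, the 12 h call held under each alternative. Those at 3 and 6 h were lost with the line fitted alone (adjusted p = 0.0728 and 0.0538) and without MET∆14 0 h replicate 2. That at 3 h was also lost without 3 h replicate 2, and that at 6 h without 6 h replicate 1. In wt MET it rose by 0.26 ± 0.095 (adjusted p = 0.0441) at 12 h, a call lost with no filter on low counts (adjusted p = 0.0597) and without wt MET 0 h replicate 1 (0.289), 12 h replicate 1 (0.226) or 12 h replicate 2 (0.105).

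DDIT4 (chr10:72273919-72276036, plus strand) was at 273 and 199.7 CPM at 0 h, 290.2 and 299.9 CPM at 3 h, 191 and 198 CPM at 6 h and 242 and 267 CPM at 12 h in wt MET. The MET∆14 libraries gave 180.2 and 165 CPM at 0 h, 138 and 132 CPM at 3 h, 120.1 and 115 CPM at 6 h and 146 and 146 CPM at 12 h. The wt MET 0 h replicates differed by more than those of any later time, and in MET∆14 the lowest values came at 6 h and not at 12 h. None of the wt MET times passed against 0 h, at 0.32 ± 0.11, -0.28 ± 0.11 and 0.10 ± 0.11. The F test over the times was passed in wt MET (adjusted p = 0.0043), and DDIT4 fell by 0.60 ± 0.11 (adjusted p = 0.00897) from 3 to 6 h, a call lost without any single wt MET 3 or 6 h library (0.0651 to 0.0898). The wt MET values changed with the 0 h replicate left out: without replicate 1, the fold changes at 3 and 12 h were 0.56 and 0.35. Without replicate 2 that at 6 h was -0.47. With all libraries, the 3 h fold change passed with DESeq2 at 0.33 (adjusted p = 0.0325) and with no filter on low counts at 0.34 (0.0114). In MET∆14 DDIT4 fell by 0.36 ± 0.11 (adjusted p = 0.0273) at 3 h, a call lost without any single 0 or 3 h library (0.0504 to 0.171), and by 0.56 ± 0.11 (adjusted p = 0.00108) at 6 h, and at 12 h the value was -0.24 ± 0.11 (adjusted p = 0.108).

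GADD45A, a p53- and stress-inducible brake on the cell cycle (chr1:67685201-67688334, plus strand), rose late in wt MET and turned from a small rise to a fall in MET∆14. Levels in wt MET were 398 and 463 CPM at 0 h, 453 and 469 CPM at 3 h, 489.9 and 488 CPM at 6 h and 575 and 553 CPM at 12 h. Replicates of MET∆14 lay at 94.5 and 96.0 CPM at 0 h, 127 and 115 CPM at 3 h, 112 and 104 CPM at 6 h and 55.9 and 58.2 CPM at 12 h. In MET∆14 the 3 and 6 h libraries lay above both 0 h libraries and the 12 h libraries below them. The rise at 3 h was 0.35 ± 0.089 (adjusted p = 0.00736), a call lost without MET∆14 0 h replicate 1 (adjusted p = 0.0616) or 3 h replicate 1 (0.0974), and the fall at 12 h was by 0.74 ± 0.091 (adjusted p = 2e-05). In wt MET GADD45A rose by 0.39 ± 0.086 (adjusted p = 0.0027) at 12 h.

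The difference between the responses, that is the log2 fold change in MET∆14 minus that in wt MET, was tested directly. At 12 h it passed and was negative in 9 of the 10 genes and positive in 0, where 11% of all genes were lower and 13% higher. The most negative values were those of DDIT3 at -2.23 ± 0.20 (adjusted p = 3.24e-06), ATF3 at -1.92 ± 0.24 (adjusted p = 7.89e-05), CHAC1 at -1.83 ± 0.26 (adjusted p = 0.000179) and TRIB3 at -1.62 ± 0.18 (adjusted p = 2.08e-05). PPP1R15A and GADD45A followed at -1.19 ± 0.15 and -1.13 ± 0.13, and ASNS, SESN2 and ATF4 at -0.75 ± 0.17, -0.75 ± 0.14 and -0.69 ± 0.13. DDIT4 did not pass, at -0.35 ± 0.16 (adjusted p = 0.137), and passed without wt MET 0 h replicate 1 at -0.59 (0.00412). At 3 h, 5 genes were lower in this difference and 1 higher (8.47% and 8.93% of all genes), and CHAC1 was the higher one at 1.20 ± 0.27 (adjusted p = 0.00569). At 6 h, 5 were lower and 0 higher (13.8% and 16.4%), with ATF3 at -2.09 ± 0.24 and DDIT3 at -2.14 ± 0.19. That count was 3 without wt MET 6 h replicate 2 or MET∆14 6 h replicate 1. Over the 3 times together, the response differed for 10 of the 10 genes against 37.6% of all genes. An additive model with line and time, the form the study used, called time in 3 of the 10 (ATF3, DDIT4 and PPP1R15A) and in 30.6% of all genes.

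**Figure D2:**
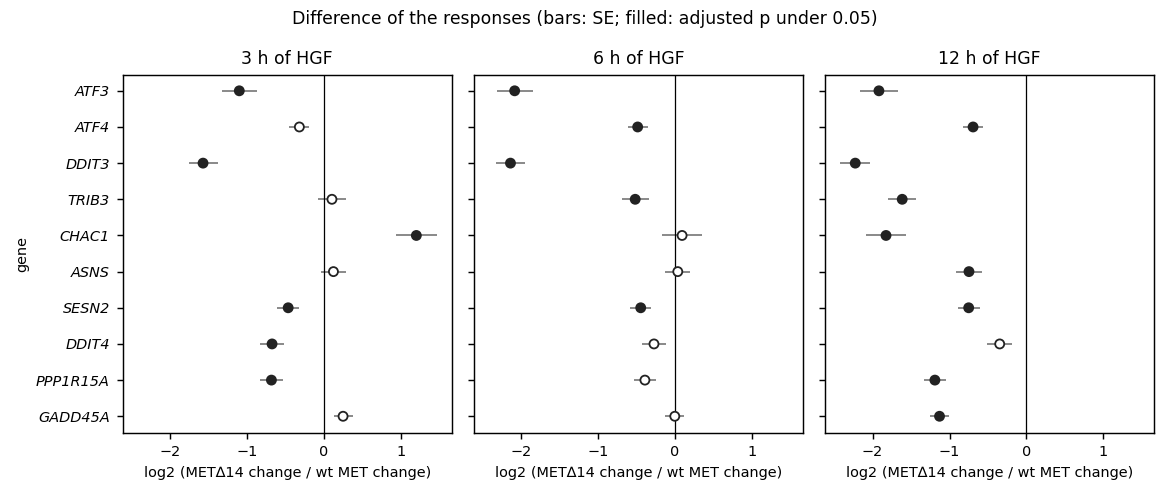
Difference in response (horizontal axis, log2 fold change against 0 h in MET∆14 minus that in wt MET) for each of the 10 genes at 3, 6 and 12 h, with bars of 1 standard error and filled circles where the adjusted p was under 0.05. At 12 h every gene lies below 0, from -0.35 for DDIT4, which did not pass the test, to -2.23 for DDIT3, and CHAC1 lies above 0 at 3 h.

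Successive times were also compared. From 3 to 6 h, 3 genes fell in MET∆14 and 0 rose (5.1% of all genes lower and 4.67% higher): ATF3 by 1.32 ± 0.17, DDIT3 by 0.77 ± 0.15 and TRIB3 by 0.57 ± 0.13. Without MET∆14 3 h replicate 1 this count was 1. From 6 to 12 h, 8 fell and 0 rose (10.3% lower and 8.3% higher), among them PPP1R15A by 1.01 ± 0.11, CHAC1 by 0.95 ± 0.20, GADD45A by 0.92 ± 0.091, TRIB3 by 0.83 ± 0.13 and ASNS by 0.76 ± 0.12. SESN2 and DDIT4 were the genes not called in that interval. Leaving out MET∆14 12 h replicate 1 lowered this count to 4 and leaving out either 6 h library to 5. In wt MET, 4 genes changed from 6 to 12 h (11.6% of all genes): ATF3 fell by 0.87 ± 0.16 and DDIT3 by 0.43 ± 0.12, and CHAC1 rose by 0.97 ± 0.18 and DDIT4 by 0.39 ± 0.11. The calls of DDIT3 and DDIT4 were lost without any single wt MET 6 or 12 h library. From 3 to 6 h in wt MET, CHAC1 rose by 0.84 ± 0.20 and DDIT4 fell by 0.60 ± 0.11 (3.1% of all genes), and both calls were lost without any single library of those times.

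Before HGF, 9 of the 10 genes were lower in MET∆14 than in wt MET and 0 were higher, where 39.6% of all genes were lower and 40.6% higher. PPP1R15A was 8.0-fold lower, DDIT3 5.30-fold, GADD45A 4.52-fold and SESN2 4.23-fold. ATF3, ASNS, TRIB3 and ATF4 were 3.89-, 3.24-, 2.99- and 2.97-fold lower. DDIT4 was 1.37-fold lower (adjusted p = 0.00179), a call that was lost without wt MET 0 h replicate 1 (0.0508), and CHAC1 did not pass, at -0.042 ± 0.18 (adjusted p = 0.834). Over all 16 libraries, 9 of the 10 genes had each wt MET library above each MET∆14 library. The share of all tested genes with such a gap between the lines was not counted. The order of the genes by level also differed. Per kilobase of the longest annotated transcript, PPP1R15A came first in wt MET at 0 h with 374 ± 49.1 CPM per kb, close to ATF4 with 339 ± 26.0 and GADD45A with 319 ± 33.8 (SD, n = 2). In MET∆14 at 0 h ATF4 came first with 114 ± 3.75 CPM per kb, then DDIT4 with 87.8 ± 5.44, and PPP1R15A had 46.8 ± 3.29. CHAC1 had the lowest such level of the 10 in both lines, at 13.5 ± 2.85 and 13.1 ± 0.846 CPM per kb.

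Among the 10 genes, the profiles of the 6 log2 fold changes lay closest for SESN2 and DDIT4, with a root mean square difference of 0.23 in log2 units, and for ATF4 and GADD45A, with 0.27. ATF3 and DDIT3 were 0.43 apart. Among 9637 genes that averaged log2 CPM 3 or more over the 16 libraries, those with profiles nearest to that of ATF4 were AFTPH (0.055), ZC3HC1 (0.057), TBC1D22B (0.067), FAM32A (0.068) and TBPL1 (0.071). Those nearest to DDIT3 lay further off. They were ADPRHL1 (0.17), HES1 (0.29), PER3 (0.30), H2BC21 (0.32) and NEDD9 (0.34). With no minimum level DOCK8 entered the list of DDIT3 at 0.19. Each distance is over 6 values from the same 16 libraries and is a description. It depends on the size of the changes, so genes that change little can lie close together even where their directions differ.

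Upstream of ATF4 stand the eIF2 kinases and the subunits and regulators of eIF2 and eIF2B. Of 15 such genes, 3 were higher and 1 lower in MET∆14 at 3 h, 9 higher and 2 lower at 6 h and 8 higher and 3 lower at 12 h, with medians of 0.16, 0.34 and 0.25. Of all genes in MET∆14, 15.5% and 16.1% were higher and lower at 3 h, 21.6% and 22.5% at 6 h and 18.3% and 20.1% at 12 h, with medians of -0.053, -0.039 and -0.024. In wt MET 2 of the 15 were higher and 0 lower at 3 h, 2 higher and 3 lower at 6 h and 2 higher and 2 lower at 12 h, where the shares of all genes were 10.3% and 7.16%, 16.4% and 17.8% and 16.9% and 18.2%. These shares are the background for the lists that follow. EIF2S1, the alpha subunit of eIF2, rose in MET∆14 by 0.77 ± 0.094 (adjusted p = 1.11e-05) at 6 h. EIF2AK3 (PERK), the kinase that senses unfolded protein in the ER, rose in wt MET by 0.67 ± 0.089 (adjusted p = 9.88e-05) at 3 h and 0.36 ± 0.089 at 12 h, and in MET∆14 its values were 0.075 ± 0.091 and 0.14 ± 0.092, neither past the test. EIF2AK1, the haem-regulated kinase, fell at 12 h by 0.38 ± 0.083 in wt MET and 0.28 ± 0.081 in MET∆14. EIF2AK2 (PKR), which senses double-stranded RNA, fell in MET∆14 by 0.59 ± 0.11 (adjusted p = 0.000526) at 12 h. PPP1R15B, the constitutive counterpart of PPP1R15A, rose in both lines at 3 h, by 0.68 ± 0.079 in wt MET and 0.46 ± 0.080 in MET∆14.

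Of 14 transcription factors that partner or regulate ATF4 and DDIT3, 5 were higher and 4 lower in MET∆14 at 3 h, 3 higher and 8 lower at 6 h and 0 higher and 9 lower at 12 h (median -0.51; 18.3% and 20.1% of all genes higher and lower). In wt MET 4 were higher and 3 lower at 3 h, and 5 higher and 3 lower at 6 h. At 12 h 4 were higher and 3 lower there (16.9% and 18.2% of all genes). NUPR1, a stress-induced chromatin protein, fell in MET∆14 by 2.08 ± 0.22 (adjusted p = 7.88e-06) at 12 h. CEBPB, a C/EBP partner, rose in MET∆14 by 0.84 ± 0.16 (adjusted p = 0.00116) at 3 h and was at -0.13 ± 0.16 at 12 h, which did not pass. ATF6B, a membrane-bound relative of ATF6, fell at 12 h in wt MET by 1.24 ± 0.13 and in MET∆14 by 0.82 ± 0.11. FOXO3 rose in wt MET at 12 h by 0.47 ± 0.088 (adjusted p = 0.000776). ATF5, itself a translationally controlled relative of ATF4, passed only at 6 h in MET∆14 among the 6 contrasts, at 0.30 ± 0.095 (adjusted p = 0.0204).

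Genes for amino acid supply were taken by function. Of 9 transporters, 2 were higher and 3 lower in MET∆14 at 3 h (median 0.21), 3 higher and 4 lower at 6 h (0.070) and 0 higher and 6 lower at 12 h (-0.86), where 18.3% and 20.1% of all genes were higher and lower. In wt MET 0 were higher and 2 lower at 3 h, and 0 higher and 3 lower at 6 h. At 12 h 2 were higher and 3 lower there (16.9% and 18.2% of all genes). SLC6A9, a glycine transporter, fell in MET∆14 by 1.40 ± 0.13 (adjusted p = 1.74e-06), and SLC38A2, a carrier of small neutral amino acids, fell there by 0.47 ± 0.097 and rose in wt MET by 0.50 ± 0.097. SLC7A1, the arginine carrier, rose in MET∆14 at 3 h by 0.71 ± 0.11 (adjusted p = 0.000108) and was at -0.15 ± 0.11 at 12 h. SLC1A5, a glutamine carrier, fell in wt MET by 1.16 ± 0.10 (adjusted p = 1.24e-06) at 6 h and rose in MET∆14 by 0.36 ± 0.10 (adjusted p = 0.00985). Of 13 genes of serine, glycine and other amino acid synthesis, 3 were higher and 1 lower in MET∆14 at 3 h. There 4 were higher and 3 lower at 6 h, and 2 higher and 4 lower at 12 h. In wt MET 0 were higher and 2 lower at 3 h, and 1 higher and 5 lower at both 6 and 12 h. PSPH, the last enzyme of serine synthesis, fell in MET∆14 by 0.81 ± 0.13 at 12 h, and MTHFD1L, of mitochondrial folate metabolism, rose there by 0.83 ± 0.10 (adjusted p = 2.23e-05). GOT1, the cytosolic aspartate aminotransferase, rose in wt MET by 0.68 ± 0.090 and fell in MET∆14 by 0.55 ± 0.10. CBS, of cysteine synthesis, fell in wt MET by 0.98 ± 0.14. Of 13 tRNA charging genes, 0 were higher and 0 lower in wt MET at 3 h, and 1 higher and 0 lower at 6 h. At 12 h 7 were higher and 0 lower there (16.9% and 18.2% of all genes), with a median of 0.23. In MET∆14, 3 were higher and 1 lower at 3 h and again at 6 h, and 0 higher and 3 lower at 12 h (18.3% and 20.1% of all genes). IARS1, for isoleucine, rose in wt MET by 0.46 ± 0.075 and GARS1, for glycine, by 0.32 ± 0.079. GARS1 also rose in MET∆14, by 0.45 ± 0.080 at 3 h and 0.53 ± 0.080 at 6 h, and AARS1, for alanine, fell in MET∆14 by 0.82 ± 0.085 (adjusted p = 4.12e-06).

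Of 21 other effectors of stress and cell death, 20 were tested. In MET∆14, 10 were higher and 3 lower at 3 h (median 0.41; 15.5% and 16.1% of all genes), 10 higher and 4 lower at 6 h (0.24; 21.6% and 22.5%) and 7 higher and 7 lower at 12 h (-0.16; 18.3% and 20.1%). In wt MET 4 were higher and 2 lower at 3 h, and 7 higher and 5 lower at 6 h. At 12 h 7 were higher and 2 lower there (16.9% and 18.2% of all genes). FGF21, a secreted target of ATF4, had at most 6 counts in a library and was not tested. KLHL24, a ubiquitin ligase adaptor, fell in MET∆14 by 3.23 ± 0.14 (adjusted p = 1.6e-09) at 6 h and rose in wt MET by 0.55 ± 0.12 at 12 h. KDM7A, a histone demethylase, rose at 12 h in both lines, by 1.09 ± 0.12 in wt MET and 1.11 ± 0.14 in MET∆14. VLDLR, a lipoprotein receptor, fell in wt MET by 1.20 ± 0.17 (adjusted p = 8.23e-05) at 6 h. Of 16 ER chaperones and unfolded protein response genes, 1 was higher and 1 lower in wt MET at 3 h. There 2 were higher and 1 lower at 6 h, and 6 higher and 1 lower at 12 h (16.9% and 18.2% of all genes). In MET∆14 2 were higher and 1 lower at 3 h, 9 higher and 1 lower at 6 h (21.6% and 22.5% of all genes) and 3 higher and 2 lower at 12 h. HERPUD1, of ER-associated degradation, fell in MET∆14 by 0.91 ± 0.091 (adjusted p = 2.78e-06) at 12 h and rose in wt MET by 0.32 ± 0.085. HSPA5 (BiP), the main ER chaperone, rose in wt MET by 0.34 ± 0.11 at 12 h and in MET∆14 by 0.33 ± 0.11 at 6 h, and its 12 h value in MET∆14 was -0.22 ± 0.11, not past the test. XBP1, the factor spliced by the ER sensor ERN1, rose in wt MET at 12 h by 0.46 ± 0.13, and ERN1 itself rose by 0.62 ± 0.13. SDF2L1, an ER-resident cofactor, rose in MET∆14 by 0.72 ± 0.14 at 12 h, and PDIA4, a disulfide isomerase, fell in wt MET by 0.82 ± 0.11.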

How the data were processed

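The data are RNA-seq counts of polyadenylated RNA in 16 libraries (2 lines, 4 times, 2 biological replicates). The authors trimmed reads, mapped them to hg38 and deposited whole-number counts per gene without normalization. The submitters' processing notes name STAR 2.5.0 and RSEM 1.3.2, whose estimates need not be whole, so the counts may have been rounded. The methods name Ensembl as the source of the assembly, and the annotation release and the use of strand are not given in the sources used here. The table spells the wt MET line slightly differently from the sample titles. Amplified wt MET cells were not used here.

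The deposited counts were fitted with edgeR 4.0.16 (limma 3.58.1, R 4.3.3) as a robust quasi-likelihood model with 1 coefficient per condition and TMM scaling. The filter filterByExpr (minimum count 10, minimum total 15) kept 15067 genes with 99.958% of counts, and 19306 had none. Benjamini-Hochberg adjustment covered all tested genes, at 0.05. The SE is the fold change divided by the root of F. The common biological coefficient of variation was 0.0868. The p-values rest on a spread between replicates that was estimated over all 8 conditions of 2 libraries together. Lengths and overlaps come from GENCODE on hg38, 1-based. The code was tested on simulated data. Of 200 genes given a 2-fold change in MET∆14 at 3 h, 74.5% were recovered, with 9 false calls among 14599 genes. Smaller changes were not simulated, so a value that did not pass does not show that there was no change.

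The 10 genes and the lists were chosen with earlier results of these data known. From each list the text names the largest mean rise and fall in each line among genes called at any time with a mean log2 CPM of 3 or more, and MARS1, EIF2AK3, HSPA5, XBP1, CEBPB, ATF5, GADD45B and SESN1. Alternatives were DESeq2 1.42.0, its size factors, no filter on low counts, a replicate block, separate fits of the lines, and leaving out each library.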

Additional observations from a re-analysis of the deposited data

Results flagged for a closer look

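Each of the 10 genes met the criterion that the response to HGF differed between MET∆14 and wt MET in an F test of the interaction over 3, 6 and 12 h (edgeR, adjusted over 15067 genes, of which 37.6% were called). The adjusted p was 2.2e-06 for DDIT3, 4.81e-06 for GADD45A, 1.05e-05 for CHAC1, 1.47e-05 for TRIB3 and 4.03e-05 for ATF3. It was 0.000134 for PPP1R15A, 0.00231 for ASNS, 0.00387 for ATF4, 0.00459 for SESN2 and 0.0237 for DDIT4. At 12 h the difference in log2 fold change was negative in 10 of the 10 genes, from -2.23 for DDIT3 to -0.35 for DDIT4, and 9 of the 10 passed on their own. The criterion for a library apart from its group could not be applied to groups of 2.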

How the results depend on the processing

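The direction of each called value of the 10 genes was the same under every alternative. With 1 library left out, the remaining replicate is assumed to vary like the other groups. Of the 10 genes, the number called then ranged from 1 to 2 (4 with all libraries) in MET∆14 at 3 h, 4 to 5 (7) at 6 h, 3 to 5 (5) in the difference at 6 h, 0 to 0 (2) in wt MET from 3 to 6 h, 2 to 2 (4) in wt MET from 6 to 12 h, 1 to 3 (3) in MET∆14 from 3 to 6 h and 4 to 6 (8) from 6 to 12 h, and was 8 to 9 (9) in MET∆14 at 12 h and 9 to 10 (9) in the difference at 12 h. The additive model called 8 of the genes with no filter on low counts and 1 with the replicate block (3 without it). The difference in log2 CPM between replicates 1 and 2 was correlated over genes between conditions of a line, at -0.159 to 0.0350. These values gave no sign that the replicate numbers pair the libraries, but they cannot show how the replicates were set up. With the block the rise of SESN2 in wt MET at 12 h had an adjusted p of 0.066.

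Values that did not pass the test changed sign in 10 cases. TRIB3 in wt MET at 3 h was 0.0044 with DESeq2 size factors, 0.0044 with DESeq2, 0.0152 with no filter, 0.0107 with the line fitted alone, and -0.095 to 0.11 over left-out libraries. ATF4 in MET∆14 at 6 h was 0.00925 with the line fitted alone. Over left-out libraries the ranges were -0.0039 to 0.21 for SESN2 in wt MET at 3 h, -0.0058 to 0.24 for GADD45A in wt MET at 3 h, -0.041 to 0.17 for TRIB3 in wt MET at 6 h, -0.11 to 0.35 for DDIT4 in wt MET at 12 h, -0.042 to 0.23 for TRIB3 in MET∆14 at 3 h, -0.41 to 0.035 for CHAC1 in MET∆14 at 3 h, -0.084 to 0.099 for ASNS in MET∆14 at 3 h, -0.064 to 0.00080 for ATF4 in MET∆14 at 6 h and -0.22 to 0.19 for CHAC1 between the lines at 0 h.

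The lists held 20 higher and 37 lower calls in MET∆14 at 12 h. Of all genes, 18.3% were higher and 20.1% lower. The number of different genes tested over the lists is not given here, so the counts cannot be read against those shares. Both counts moved when either 12 h library was left out, an alternative added after seeing the data. The cause of these calls was not tested. Depth limits CHAC1 most: its smallest count in a library was 80, against 150 over the other genes.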

Other observations

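The 12 tested paralogs of these stress response genes gave 3 higher and 2 lower calls in MET∆14 at 3 h, 5 higher and 3 lower at 6 h and 2 higher and 4 lower at 12 h, where 18.3% of all genes were called higher and 20.1% lower. In wt MET 3 were higher and 3 lower at 3 h (10.3% and 7.16% of all genes). At 6 h 5 were higher and 3 lower there (16.4% and 17.8%), and at 12 h 4 higher and 0 lower (16.9% and 18.2%). GADD45B, a relative of GADD45A, was at 121 and 160.3 CPM at 0 h, 222 and 258 CPM at 3 h, 279.7 and 370.0 CPM at 6 h and 230.4 and 178 CPM at 12 h in wt MET and at 32.1 and 31.1 CPM at 0 h, 32.8 and 29.2 CPM at 3 h, 25.4 and 26.4 CPM at 6 h and 12.0 and 18.6 CPM at 12 h in MET∆14. It rose in wt MET by 1.21 ± 0.18 (adjusted p = 0.000204) at 6 h and fell in MET∆14 by 1.08 ± 0.22 (adjusted p = 0.00156) at 12 h. SESN3, a FOXO-inducible relative of SESN2, fell in MET∆14 by 2.24 ± 0.13 (adjusted p = 1.09e-08) at 6 h, while SESN1 fell in both lines at 3 h, by 0.72 ± 0.15 in wt MET and 0.62 ± 0.21 in MET∆14. JDP2, a bZIP relative of ATF3, fell in MET∆14 by 1.43 ± 0.14 (adjusted p = 3.11e-06) at 12 h. In wt MET its mean log2 fold change over 3, 6 and 12 h was -0.50, the largest mean fall of the called paralogs there. DDIT4L, a relative of DDIT4 named after its values were seen, was at 0.652 and 0.745 CPM at 0 h, 9.45 and 7.47 CPM at 3 h, 10.4 and 8.83 CPM at 6 h and 3.34 and 4.54 CPM at 12 h in MET∆14 and rose there by 3.57 ± 0.33 (adjusted p = 1.04e-06) at 3 h, where the value of DDIT4 was -0.36 ± 0.11. In wt MET DDIT4L was at 0.941 and 0.424 CPM at 0 h, 0.0668 and 0.162 CPM at 3 h, 0.121 and 0 CPM at 6 h and 0.333 and 0.336 CPM at 12 h.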
